A study of Mus musculus with 6 samples.

Results

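The mRNAs of the cytosolic ribosomal proteins were examined in mouse kidneys after repeated cisplatin. Members were the protein-coding genes whose mouse symbol has the form Rpl, Rps or Rplp followed by a number and, at most, a suffix such as a, x or l. The rule found 84 of the 56691 genes in the count files, 80 of which had enough counts to be tested among 15662 genes. All mice were C57BL/6 males, 9 weeks old at the first injection. The injured group received cisplatin, a platinum drug that crosslinks DNA and is toxic to the kidney tubule, at 8 mg/kg intraperitoneally once a week for 4 injections (the labels spell the agent "Ciaplatin" and give the genotype field as cisplatin-induced CKD, chronic kidney disease). The control group received saline vehicle. Kidneys were taken at the end of 7 weeks, and total RNA of 3 cisplatin-injured and 3 control kidneys was sequenced, with 1 library per mouse. The tissue was whole kidney, so fewer cells of one type and less RNA per cell cannot be told apart.

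A cytosolic ribosome is built from a small subunit, which reads the mRNA, and a large subunit, which joins amino acids, each an assembly of ribosomal RNA and of proteins encoded by single genes scattered over the chromosomes. Their mRNAs commonly begin with a short run of pyrimidines, the TOP tract, through which mTORC1 and the RNA-binding protein Larp1 control their translation. Several free ribosomal proteins also bind Mdm2, the ubiquitin ligase that degrades p53, and p53 is the factor that DNA damage activates. The kidney filters and reabsorbs with a large mass of proximal tubule cells, which are the main site of cisplatin uptake.

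The TOP tract is the one sequence feature that the family is known for. Shown are the starts of named members with a tract exactly at an annotated start, and that of Rpl12. Promoter sequences from RefSeq were at hand for 63 members and 15311 protein-coding genes. A C followed by at least 4 bases that are each C or T, on the strand of the transcript, began exactly at an annotated start in 13 members (20.6%), against 434 of the 15311 genes (2.83%). Within 5 bases of a start the numbers were 29 members (46.0%) and 3437 genes (22.4%). The sequences below run 5′ to 3′ over 25 bases, 10 before the start and 15 from it on, and were placed on GRCm39 by exact match. Capitals mark the tract that begins at or nearest to the annotated start, and pyrimidines may continue upstream of it. Rpl12, the member with the highest fold change, is shown last, and its tract begins 2 bases after the start.
Rps18 (chr17:34174625-34174649, - strand): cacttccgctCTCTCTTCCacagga
Rps27 (chr3:90120941-90120965, - strand): cgctttcgctCCTTTCCggcggtga
Rpl38 (chr11:114559396-114559420, + strand): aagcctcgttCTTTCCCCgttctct
Rplp2 (chr7:141027554-141027578, + strand): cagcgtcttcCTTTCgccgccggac
Rps6 (chr4:86775590-86775614, - strand): gaagtcgggcCTCTTTTTCgtgacg
Rpl28 (chr7:4795954-4795978, + strand): tctcgtgtctCTCTTTCCgtctccg
Rpl35a (chr16:32876842-32876866, + strand): gcttgccttcCTCTTTCCgccatct
Rpl12 (chr2:32851714-32851738, + strand): agcaggatccgtCTTTTCggctttc
The 7 exact starts belong to genes at different places in the order of change, as given below: Rps18, Rps27, Rpl38 and Rplp2 rose, while Rps6, Rpl28 and Rpl35a did not pass the test. For the 13 tested members with a tract exactly at a start, none of them a paralog, the median log2 fold change was 0.26 (quartiles 0.07 and 0.33), and the 42 without one had 0.26 (quartiles 0.18 and 0.33). A match is a description of these letters and not evidence of a working tract.

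The files hold raw counts of read pairs per gene. They came to 21891855 to 25356523 counted pairs per library in cisplatin-injured kidneys and 24111688 to 26627554 in control kidneys. Of the 80 tested members, 70 had at least 1000 counts in every library. The mRNAs of cell type markers also differed: 10 of 11 proximal tubule markers fell, where 22.8% of all genes did. The other, Aqp1, did not pass the test described below (log2 fold change -0.04). The 11 markers summed to 5006 to 5238 CPM (counts scaled to a common library size) in cisplatin-injured and 32541 to 32937 CPM in control kidneys. Kap, an androgen-driven gene of the tubule, made up most of the control sum, and without it the sums were 4741 to 4973 and 10930 to 12200 CPM. Meanwhile 8 of 9 macrophage markers rose (359 to 472 against 169 to 197 CPM), as did 6 of 7 fibroblast markers (402 to 668 against 204 to 252 CPM). Over all genes, 24.5% rose. Pairs that overlapped no annotated exon on the transcript's strand made up 9.32%, 6.63% and 6.09% in cisplatin replicates 1 to 3 and 4.63% to 4.86% in control libraries. This class does not separate introns from sequence between genes. The part of these differences in the results below was not tested.

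Ribosomal protein mRNAs took a larger part of the coding transcriptome after cisplatin. The 84 genes held 2.60%, 3.01% and 3.19% of the counts of nuclear protein-coding genes in the cisplatin-injured kidneys, against 1.89%, 1.87% and 1.94% in the control kidneys. The groups did not overlap, and the means were 2.93% ± 0.31 and 1.90% ± 0.03 (SD, n = 3 each), a ratio of 1.54. The two-sided exact permutation p was 0.1, the smallest that 3 against 3 mice can give. A share is relative to the other transcripts in a library. With libraries scaled by their total counts, the median log2 fold change over all tested genes was also positive, at 0.48, against 0.68 for the members. Without the 20 highest protein-coding genes in the denominator, the means were 3.12% and 2.16%, and the ratio was 1.45.

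**Figure D1:**
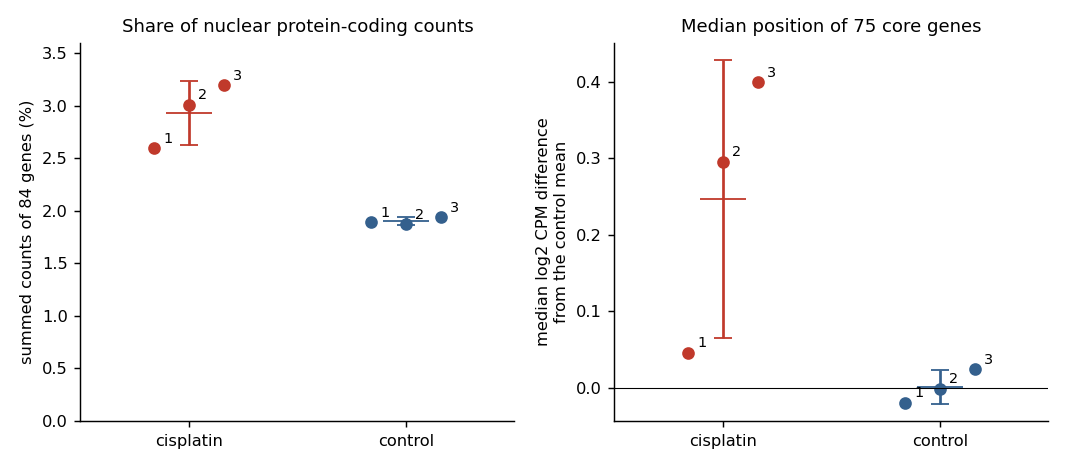
Left, summed counts of the 84 ribosomal protein genes as a percentage of nuclear protein-coding counts; right, the median over 75 core genes of the log2 CPM difference from the control mean. Points are libraries with their replicate number, and bars are mean ± SD (n = 3 each). Cisplatin replicate 1 sits below replicates 2 and 3 in both panels, at 2.60% on the left and 0.05 on the right.

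Gene by gene, with libraries scaled so that most genes are taken as unchanged (TMM factors), the rise was small and shared by most members. Of the 80 tested, 73 had a positive and 7 a negative log2 fold change, with a median of 0.26, or 1.20-fold, against 0.05 over all genes tested. By edgeR's quasi-likelihood test with Benjamini-Hochberg adjustment over all 15662 genes, 32 members rose (40%) where 24.5% of all genes did, and 4 fell (5.0%) where 22.8% of all genes did. The 36 called in either direction made up 45% of the members, and 47.4% of all genes were called. In 38 members (47.5%) all cisplatin-injured kidneys lay above all control kidneys, as they did for 30.2% of all genes, and in 4 members (5.0%) all lay below, against 27.6%. The 42 without overlap on either side made up 52.5%, and 57.8% over all genes. A further 16 members had an adjusted p between 0.05 and 0.1. The count of 32 rested on single libraries. Without cisplatin replicate 1 it was 62 (76.5%), against 23.2% of all genes. Without cisplatin replicate 2 or 3 it was 11 (13.75%) and 13 (16.25%), against 20.5% and 25.2%. Without control replicate 1, 2 or 3 it was 7 (8.75%), 9 (11.1%) and 11 (13.75%), against 19.2%, 19.0% and 18.7%. In each of these fits but the first, the member share lay below the all-gene share. With the replicate number as a block, 44 members rose (55%), against 26.1% of all genes.

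The kidneys of the injured group were not alike in these genes. The 76 members other than the 8 paralogs described below are called core members, and 75 of them were tested. Cisplatin replicate 1 was the lowest of the cisplatin libraries for 71 of these 75, and cisplatin replicate 3 the highest for 63. The median core member lay 0.05, 0.30 and 0.40 above the control mean on the log2 CPM scale in cisplatin replicates 1, 2 and 3, against -0.02, 0.00 and 0.02 in the control kidneys. Cisplatin replicate 1 exceeded every control kidney in 40 core members, replicate 2 in 69 and replicate 3 in 71. The order of the kidneys was not counted over all genes, so whether it is particular to these members was not tested. Without cisplatin replicate 1 the member median was 0.35, and without replicate 3 it was 0.16. Cisplatin replicate 1 also had the highest share of pairs on no annotated exon and the highest summed macrophage and fibroblast levels (472 and 668 CPM). Whether these bear on its lower ribosomal protein mRNAs was not tested.

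The size of the rise and the number of calls depended on the scaling. With DESeq2 size factors 18 members rose (22.5%), close to the 23.0% of all genes that rose there. With upper-quartile factors 53 rose (66.2%), against 30.5% of all genes, and with library totals 75 (93.8%), against 54.3%. The member median was 0.23, 0.35 and 0.68 under these scalings, and the median over all genes was 0.02, 0.14 and 0.48. A scaling factor moves all genes of a library nearly alike, so the member median minus the all-gene median, 0.21 with TMM factors, is set by construction to stay near that value. Leaving the members themselves out of the TMM calculation changed neither count. Of the named members that rose, Rpl3, Rpl5, Rpl23, Rpl38, Rplp1, Rps14 and Rps24 did not pass the test with DESeq2 size factors, and Rpl23 and Rps14 also did not pass it in DESeq2 or with counts that ignore the strand.

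**Figure D2:**
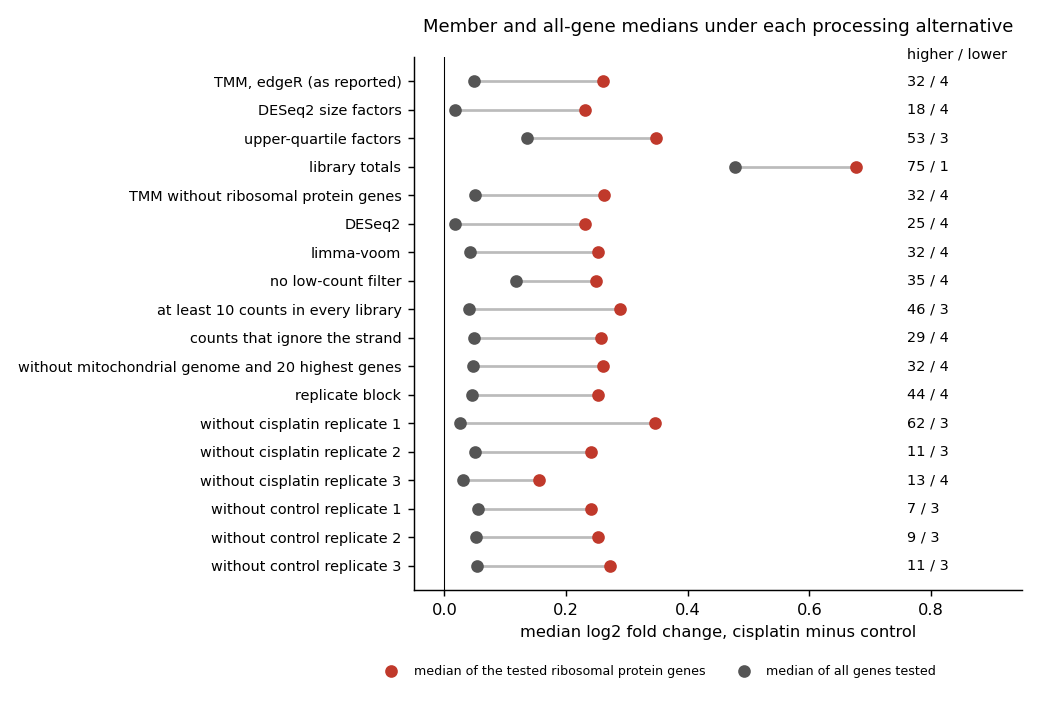
Median log2 fold change (cisplatin minus control) of the tested ribosomal protein genes (red) and of all genes tested (grey) under each processing alternative, with the number of members called higher and lower at the right. The red point lies to the right of the grey one in every row, with 32 higher and 4 lower under the fit reported here.

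The subunits had similar medians. Of the 45 tested core members of the large subunit, 18 rose (40%) and 1 fell (2.2%), and the median log2 fold change was 0.25. Of the 30 of the small subunit, 13 rose (43.3%) and none fell, with a median of 0.27. Over all genes, 24.5% rose and 22.8% fell. Across the 75 tested core members, the log2 fold change had a Spearman correlation of -0.05 with transcript length, -0.02 with GC content, 0.11 with mean log2 CPM and 0.04 with the part of the transcript that has exact copies elsewhere in the genome. These values describe genes of the same 6 libraries.

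**Figure D3:**
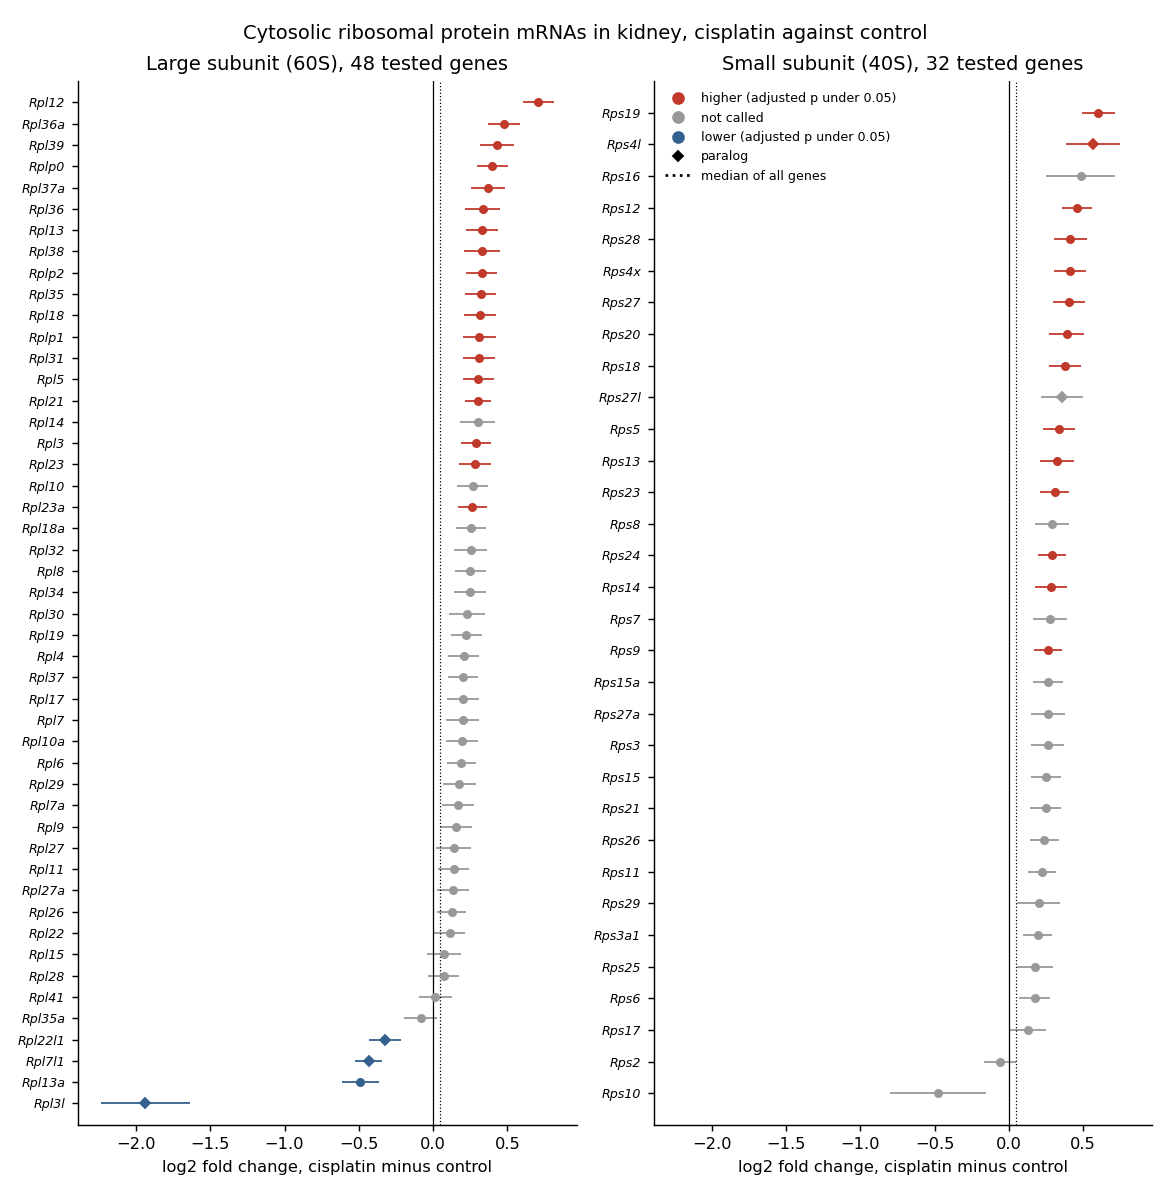
Log2 fold change (cisplatin minus control) ± SE from edgeR for the 48 tested members of the large and the 32 of the small subunit, with paralogs as diamonds and the all-gene median of 0.05 as a dotted line. Most points lie between 0 and 0.5, 32 are called higher (red), and Rpl3l lies far to the left at -1.94.

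Rpl12, a protein at the base of the stalk that recruits elongation factors, had the highest fold change (chr2:32851496-32855357, + strand, GRCm39). It was at 139, 167 and 179 CPM in cisplatin-injured kidneys and at 102, 95.3 and 100 CPM in control kidneys. Every injured kidney exceeded every control, and the log2 fold change was 0.71 ± 0.10 (SE), with an edgeR adjusted p of 0.00028. Rps19, a small-subunit protein whose gene is the one most often mutated in human Diamond-Blackfan anaemia, followed (chr7:24583796-24589231, + strand). Its levels were 151, 179 and 202 CPM in cisplatin-injured kidneys and 120, 113 and 117 CPM in control kidneys, a log2 fold change of 0.60 ± 0.11 (edgeR adjusted p = 0.0012). The groups did not overlap for Rps19 either.

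Among the other members whose groups did not overlap, the rises were smaller. Rpl36a, a large-subunit protein encoded on the X chromosome, had 51.5, 61.2 and 67.6 CPM after cisplatin and 45.4, 41.9 and 42.1 CPM in controls, with a log2 fold change of 0.48 ± 0.11 (edgeR adjusted p = 0.0037). Rps12, which in Drosophila is needed for the elimination of cells short of ribosomal proteins, rose by 0.46 ± 0.10 (edgeR adjusted p = 0.0040). Rpl39, which lines the exit tunnel for the nascent chain, rose by 0.43 ± 0.11 (edgeR adjusted p = 0.0093), and Rps28 by 0.41 ± 0.11 (edgeR adjusted p = 0.011). In all of these the injured kidneys lay above all controls. The call of Rps28 was lost without cisplatin replicate 2 or control replicate 1. Of Rpl36a and Rps12, 88.2% and 81.2% of the 150-base windows have exact copies elsewhere in the genome, so part of their pairs could not be assigned to them. Rpl12, Rps19, Rpl36a, Rps12 and Rpl39 kept their call under each of 18 alternatives, an adjusted p under 0.01 included. Scaling to the summed members, described below, is not among these 18. On that scale Rpl36a, Rps12 and Rpl39 were not called (edgeR adjusted p = 0.072, 0.081 and 0.12).

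**Figure D4:**
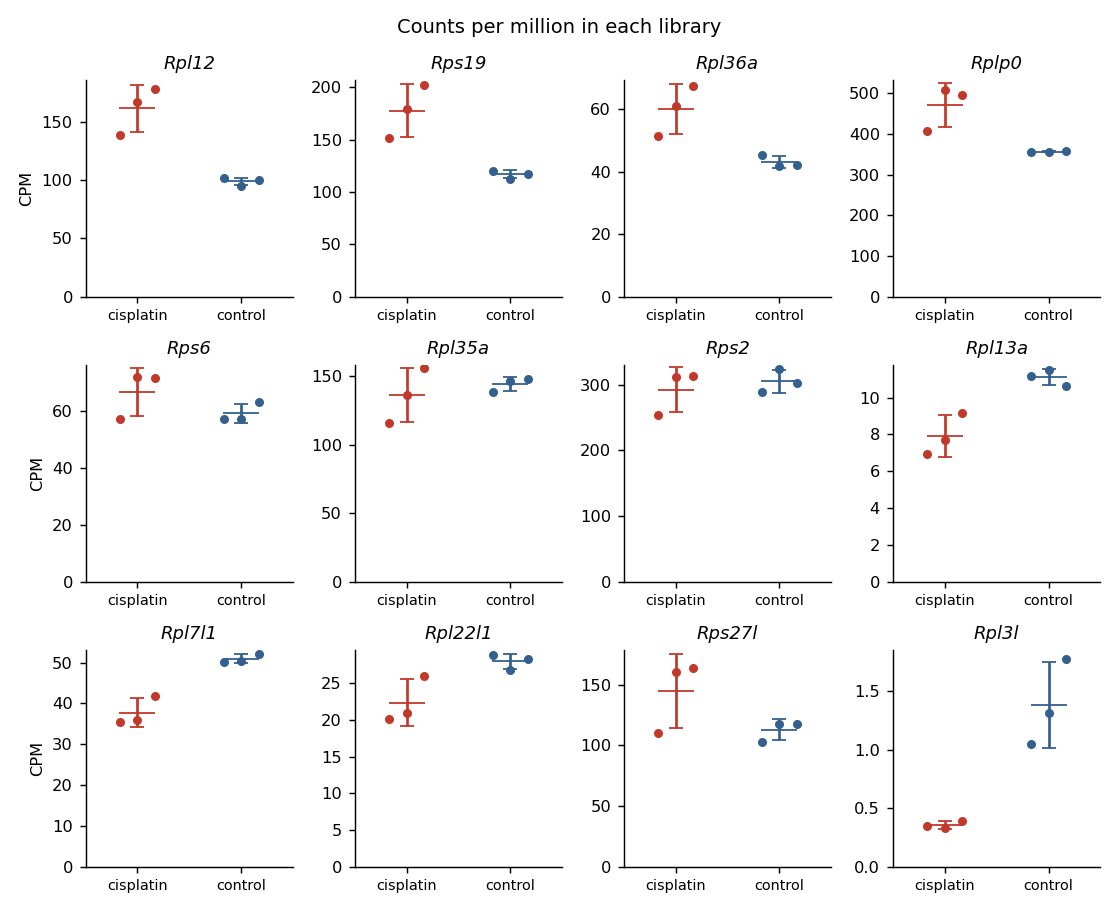
CPM in each library for 12 members, with mean ± SD (n = 3 each) and axes that start at 0. The cisplatin points of Rpl12, Rps19, Rpl36a and Rplp0 lie above all control points, those of Rpl13a, Rpl7l1, Rpl22l1 and Rpl3l lie below, and those of Rps6, Rpl35a, Rps2 and Rps27l overlap with control.

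The stalk proteins rose together. Rplp0, which anchors the stalk and had the highest CPM of all members, was at 408, 507 and 496 CPM in cisplatin-injured kidneys and at 356, 356 and 357 CPM in control kidneys. Its log2 fold change was 0.40 ± 0.11 (edgeR adjusted p = 0.010). The acidic proteins that bind to it, Rplp1 and Rplp2, rose by 0.31 ± 0.11 and 0.33 ± 0.11 (edgeR adjusted p = 0.037 and 0.026). All 3 genes had their injured kidneys above all controls. Without control replicate 1, 2 or 3, or without cisplatin replicate 2 or 3, neither Rplp1 nor Rplp2 passed the test.

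Of 5 members listed for binding Mdm2, a list not meant to be complete, Rpl5 and Rpl23 rose (40%), where 24.5% of all genes did. Rpl5, which with Rpl11 and 5S ribosomal RNA forms the particle that blocks Mdm2, had 128, 142 and 160 CPM after cisplatin and 125, 108 and 114 CPM in controls, a log2 fold change of 0.31 ± 0.10 (edgeR adjusted p = 0.034). Rpl23 followed with 0.28 ± 0.11 (edgeR adjusted p = 0.047). Neither passed the test without control replicate 2 or 3 or without cisplatin replicate 2 or 3, and Rpl23 also not without control replicate 1. Rpl11, its partner in the particle, had 78.1, 89.0 and 94.1 CPM after cisplatin and 83.8, 69.5 and 83.9 CPM in controls, so that the groups overlapped (0.14 ± 0.11, edgeR adjusted p = 0.30). Rpl26 (0.12 ± 0.10, edgeR adjusted p = 0.33) and Rps27a, which is made as a fusion with ubiquitin (0.26 ± 0.11, edgeR adjusted p = 0.085), were not called. Their common target Mdm2 was at 35.0, 41.0 and 33.8 CPM after cisplatin and at 20.6, 16.7 and 20.4 CPM in controls. It is itself a p53 target, and 13 of 14 listed p53 targets rose, against 24.5% of all genes. Among them was Cdkn1a, the cell cycle inhibitor p21, with a log2 fold change of 4.72 ± 0.19.

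Of the other members named for a known role, some were called and some were not. Rps14, whose loss causes the anaemia of the human 5q deletion syndrome, rose by 0.28 ± 0.11 (edgeR adjusted p = 0.046), and Rps24 by 0.29 ± 0.10 (edgeR adjusted p = 0.031). Neither call held without any 1 of the control replicates or without cisplatin replicate 3, and that of Rps24 also not without cisplatin replicate 2. Rpl38, which in mouse embryos is needed for the translation of certain Hox mRNAs, rose by 0.33 ± 0.12 (edgeR adjusted p = 0.044) although its groups overlapped, at 170, 219 and 234 CPM after cisplatin and 157, 173 and 167 CPM in controls. Its call was lost without any 1 of the controls or without cisplatin replicate 2 or 3. Rps18 rose by 0.38 ± 0.11 (edgeR adjusted p = 0.014), and its call was lost without control replicate 1 or 2. Rps26 was at 0.24 ± 0.10 (edgeR adjusted p = 0.072) and was not called.

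Not every member rose. Rps6, the substrate of the S6 kinases, was at 57.0, 71.7 and 71.4 CPM after cisplatin and at 57.2, 57.2 and 63.0 CPM in controls (0.17 ± 0.10, edgeR adjusted p = 0.19). Copies elsewhere in the genome cover 90.7% of its windows, the highest share in the family. Rpl35a was at 116, 137 and 156 CPM after cisplatin and at 139, 146 and 148 CPM in controls, with a log2 fold change of -0.08 ± 0.11 (edgeR adjusted p = 0.56). Rps2, a substrate of the arginine methyltransferase Prmt3, had 254, 311 and 314 CPM after cisplatin and 289, 324 and 302 CPM in controls (-0.06 ± 0.11, edgeR adjusted p = 0.67). Rpl41, the smallest ribosomal protein, was at 0.02 ± 0.11 (edgeR adjusted p = 0.92) and Rpl28 at 0.07 ± 0.10 (edgeR adjusted p = 0.60). Rpl4, among the 3 members with the highest CPM, had 356, 404 and 435 CPM after cisplatin and 333, 353 and 351 CPM in controls, which did not overlap but did not pass the test either (0.21 ± 0.10, edgeR adjusted p = 0.12). For Rpl35a and Rps2 the sign turned with library totals, where they were called higher (0.33 and 0.36). Rpl41 was called higher there as well (0.43), while its sign turned with DESeq2 size factors (-0.014, not called).

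Unequal change within the family was tested by scaling the libraries to the summed counts of the members, an alternative chosen after the data were seen. On this scale the median was 0.00, and 9 of the 80 members were called by edgeR. The share of all genes called on this scale was not counted, so these 9 calls have no background beside them. Rpl12 (0.45) and Rps19 (0.34) stood above the family, with adjusted p-values of 0.0015 and 0.0067. Rpl35a (-0.34), Rps2 (-0.32) and Rpl41 (-0.25) stood below it, with adjusted p-values of 0.0061, 0.011 and 0.025. The other 4 below were the members that fell under TMM scaling.

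Of these 4, only Rpl13a is no paralog. In human monocytes its protein leaves the ribosome to silence inflammatory mRNAs. It had 6.92, 7.71 and 9.16 CPM in cisplatin-injured kidneys and 11.2, 11.5 and 10.6 CPM in control kidneys, with no overlap and a log2 fold change of -0.49 ± 0.12 (edgeR adjusted p = 0.0079). Other annotated genes share 59.3% of its exon bases on the same strand, so that most of its pairs could be set aside as ambiguous: it had 201 to 230 counts per library after cisplatin and 221 to 266 in controls. The 2 genes annotated there, Gm45713 and Mir5121, had no counts. Ambiguous pairs made up 1.9% to 2.0% of all pairs in cisplatin and 1.2% to 1.3% in control libraries. The part of this difference in the lower counts of Rpl13a was not tested. With library totals Rpl13a was at -0.07 and was not called.

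Mammals carry genes related to those of several ribosomal proteins, some with restricted expression, and 8 such paralogs were members. Of these, 5 could be tested: 3 fell (60%), 1 rose (20%) and 1 was not called, where 22.8% of all genes fell and 24.5% rose. Rpl3l, which takes the place of Rpl3 in heart and skeletal muscle, was scarce: 10, 10 and 9 counts in cisplatin-injured kidneys and 25, 27 and 37 in control kidneys. The groups did not overlap, and the log2 fold change was -1.94 ± 0.30 (edgeR adjusted p = 0.0004). The skeletal muscle markers Ckm, Acta1 and Myh4 together had 1, 2 and 0 counts in cisplatin-injured kidneys and 0, 0 and 1 in control kidneys. Of the other muscle markers, Myh11 of smooth muscle was at 26.9 to 39.5 CPM after cisplatin and 37.9 to 46.2 CPM in controls and was not called. Its parent Rpl3 rose by 0.29 ± 0.10 (edgeR adjusted p = 0.034), a call lost without any 1 of the controls or without cisplatin replicate 2 or 3.

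Rpl7l1, related to Rpl7, was at 35.5, 35.9 and 41.8 CPM after cisplatin and at 50.2, 50.4 and 52.2 CPM in controls. It fell by 0.43 on the log2 scale (SE 0.09, edgeR adjusted p = 0.0023), and it kept its call under all alternatives run but an analysis with library totals. Rpl22l1, which Rpl22 represses in mouse cells, had 20.1, 21.0 and 25.96 CPM after cisplatin and 28.8, 26.8 and 28.3 CPM in controls. It fell by 0.33 (SE 0.11, edgeR adjusted p = 0.029), but not with library totals (0.09), and the call was lost with upper-quartile factors (adjusted p = 0.099) and without any 1 of the libraries except cisplatin replicate 3. The parents Rpl7 (0.20 ± 0.11, edgeR adjusted p = 0.15) and Rpl22 (0.11 ± 0.10, edgeR adjusted p = 0.41) were not called.

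Rps27l is induced by p53 in human and mouse cells. It had 110, 160 and 164 CPM after cisplatin and 103, 118 and 118 CPM in controls, where replicate 1 of the injured kidneys lay among the controls. Its log2 fold change of 0.36 ± 0.14 did not pass the test (edgeR adjusted p = 0.060); under 6 of 18 alternatives it did, one of them the fit without cisplatin replicate 1. Rps27 itself rose by 0.40 ± 0.11 (edgeR adjusted p = 0.012), and this call was lost without control replicate 1. Rps4l was at 11.6, 14.9 and 8.77 CPM after cisplatin and at 7.65, 7.16 and 9.09 CPM in controls. It was called higher at 0.57 ± 0.18 (edgeR adjusted p = 0.024) although cisplatin replicate 3 lay among the controls, and the call was lost without cisplatin replicate 2 (adjusted p = 0.11) and without control replicate 1 or 2. Rps4x, the X-linked parent, rose by 0.41 ± 0.11 (edgeR adjusted p = 0.010) with no overlap, a call lost without control replicate 1.

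The log2 ratio of paralog to parent, which needs no scaling between libraries, separated the groups in 3 of 5 pairs. For Rpl22l1 to Rpl22 it was -2.22 ± 0.03 after cisplatin and -1.79 ± 0.02 in controls, a difference of -0.43. The ratio of Rpl7l1 to Rpl7 was -2.66 ± 0.07 against -2.03 ± 0.11, a difference of -0.63, and that of Rpl3l to Rpl3 was -9.005 ± 0.08 against -7.01 ± 0.30 (SD, n = 3 each), a difference of -1.99. Each of these had a two-sided exact permutation p of 0.1, the smallest possible with 3 against 3 mice, and 0.17 after adjustment over the 5 pairs. Rps27l to Rps27 differed by -0.06 (exact permutation p = 0.6) and Rps4l to Rps4x by 0.13 (exact permutation p = 0.7), both less than the spread between kidneys. These ratios are not corrected for gene length, and only their difference between groups is read. A ratio of mRNAs does not show that 1 protein takes the place of the other in ribosomes.

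**Figure D5:**
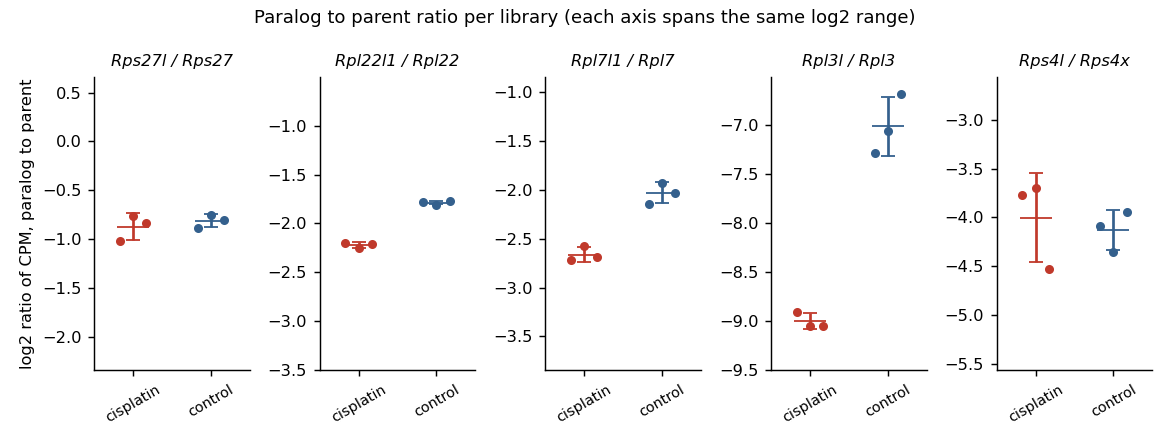
Log2 ratio of CPM of each paralog to its parent in each library, with mean ± SD (n = 3 each); each axis covers the same log2 range around its own centre. The cisplatin points lie below all control points for Rpl22l1, Rpl7l1 and Rpl3l and overlap with them for Rps27l and Rps4l.

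The other 3 paralogs and 1 core member had too few counts for a test. Rpl10l, which stands in for the X-linked Rpl10 in the testis, had no count in any library, and Rpl39l, also known from the testis, had 1 count in all. Rpl36al had 9, 4 and 9 counts after cisplatin and 8, 2 and 10 in controls. Rpl24 had 10, 7 and 6 counts after cisplatin and 3, 3 and 2 in controls. Another annotated gene covers 71.5% of the exon bases of Rpl24, and Rps10, which was tested at only 10 to 22 counts after cisplatin and 13 to 22 in controls, shares 53.6% of its bases. Pairs in shared bases are not counted for either gene, so the counts of Rpl24 and Rps10 understate their expression by an unknown amount. The parents Rpl10, at 0.27 ± 0.11 (edgeR adjusted p = 0.060), and Rpl36a, above, were well counted.

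Levels of different members can be compared only per length. Per kilobase of annotated transcript, Rplp1 had 513 and Rps27 501 CPM after cisplatin, against 413 and 379 in controls, while Rplp0 had 345 and 261. Pairs from exact copies are lost, so such values are lower bounds. Genes named as pseudogenes of the members (310 in the files, 186 with any count) held 0.396% to 0.495% as many counts as the members after cisplatin and 0.379% to 0.465% in controls. Leaving out members with shared or largely copied sequence left 25 higher (39.7%) and 3 lower of 63, with a median of 0.26. Over all genes, 24.5% rose and 22.8% fell. One member outside the named set stood apart from the family's order of kidneys, and was picked after its values were seen: Rps16 had 58.7, 91.3 and 40.5 CPM after cisplatin and 38.5, 50.01 and 48.1 CPM in controls (edgeR adjusted p = 0.11).

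Among genes that work with the ribosome or make it, calls ran in both directions. Of ribosomal proteins whose symbols fall outside the rule, Fau (0.29 ± 0.10, edgeR adjusted p = 0.036) and Rack1 (0.37 ± 0.12, edgeR adjusted p = 0.022) rose, and Rpsa (0.14 ± 0.10, edgeR adjusted p = 0.28) was not called. Of 21 translation factors and other mRNAs known for a TOP tract, 2 rose and 2 fell (9.52% each, where 24.5% of all genes rose and 22.8% fell), and their median log2 fold change was 0.02. The 2 that rose were Eif3f (0.58 ± 0.11) and Hnrnpa1 (0.39 ± 0.09), and those that fell were Eif2s3x (-0.41 ± 0.11) and Nap1l1 (-0.25 ± 0.08). Eef1a1, the main elongation factor, had 2398, 2746 and 2835 CPM after cisplatin and 2357, 2411 and 2368 CPM in controls (0.16 ± 0.11, edgeR adjusted p = 0.27). The medians of these lists were not tested against that of the ribosomal proteins.

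Of 45 ribosome biogenesis factors, 6 rose (13.3%) and 4 fell (8.89%), below the shares over all genes of 24.5% and 22.8%, with a median of 0.01. Eif6, which keeps the large subunit from joining too early, rose most clearly, with 53.03, 57.9 and 63.9 CPM after cisplatin and 34.0, 34.6 and 38.4 CPM in controls (0.71 ± 0.10, edgeR adjusted p = 0.00015). Nhp2, a core protein of the particles that pseudouridylate ribosomal RNA, had 17.4, 20.4 and 21.2 CPM after cisplatin and 45.4, 42.2 and 46.7 CPM in controls (-1.19 ± 0.10, edgeR adjusted p = 5.4e-06). Riok1 (0.48) and Gnl2 (0.37) rose as well, and Nop2 (-0.35) and Nop10 (-0.37) fell. Of the 6 dedicated chaperones and importers, which escort single ribosomal proteins to the nucleus and the preribosome, 3 fell, against 22.8% of all genes, and none rose: Bccip (-0.54 ± 0.09), Heatr3 (-0.33 ± 0.10) and Tsr2 (-0.29 ± 0.11).

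In the list of mTORC1 components, Larp1 and Myc, 2 of 17 genes rose (11.8%) and 4 fell (23.5%), against 24.5% and 22.8% of all genes. Mtor, the kinase itself, was at 77.9, 71.2 and 60.4 CPM after cisplatin and at 159, 221 and 149 CPM in controls (-1.34 ± 0.15, edgeR adjusted p = 4.9e-05). Eif4e (-0.46 ± 0.09) and Larp4 (-0.47 ± 0.09) fell with no overlap. Of the repressors of Eif4e, Eif4ebp1 rose by 0.94 ± 0.15, while Eif4ebp2 fell (-0.44 ± 0.16, edgeR adjusted p = 0.041), with 57.2, 44.7 and 33.5 CPM after cisplatin and 61.7, 64.0 and 57.8 CPM in controls. Myc rose by 1.07 ± 0.34, at 2.75 to 5.26 CPM after cisplatin and 1.18 to 3.36 CPM in controls. Larp1 was not called (-0.24 ± 0.16, edgeR adjusted p = 0.23). Of the 10 noncoding hosts of small nucleolar RNAs, many of which have a TOP tract themselves, 5 rose, against 24.5% of all genes, and none fell, with a median of 0.33. The clearest were Snhg15 (1.45 ± 0.19), Snhg5 (1.07 ± 0.17) and Snhg3 (0.72 ± 0.19), while Gas5 was at 0.21 ± 0.12 (edgeR adjusted p = 0.17).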

How the data were processed

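Total RNA of whole kidneys was made into stranded libraries and sequenced as pairs of 150 bases. The authors trimmed the pairs with Cutadapt, aligned them to mm39 with STAR and deposited raw counts per gene, without normalization. STAR's options and gene annotation for these libraries were not found in the sources used. Counts of the transcript's strand were used (96.7% to 97.2% of stranded pairs). Pairs mapped to several places (11.5% to 12.9%) are not in them. Replicates are separate mice and differed by more than counting noise.

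Symbols came from GENCODE vM39. The test was edgeR 4.0.16's quasi-likelihood F test after filterByExpr (count 10, total 15) and TMM scaling, with Benjamini-Hochberg adjustment and a threshold of 0.05, and was tested on simulated data. SE is the absolute log2 fold change over the root of F. CPM use TMM library sizes, and log2 CPM a prior count of 2. Exact permutation used scipy 1.17.1. Copies were sought by mapping windows of 150 bases, every 10 bases, to GRCm39 (minimap2 2.31).

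Named were the paralogs and parents, 5 listed Mdm2 binders, the stalk proteins and 9 members with known roles. Also named were up to 6 rises and 6 falls of greatest size (no overlap, mean log2 CPM 3 or more). The 3 highest, the 3 least changed and the untested members were named too. Members and lists were chosen with earlier results of these data known. A gene of the other lists is not reported here. Alternatives were other scalings, DESeq2 1.42.0, limma-voom 3.58.1, other filters, counts ignoring strand, a replicate block, leaving out libraries, genes or members, other denominators and prior counts, and an adjusted p under 0.01.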

Additional observations from a re-analysis of the deposited data

How the results depend on the processing

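The count of 32 members that rose (40%, against 24.5% of all genes) moved to 18 with DESeq2 size factors (22.5%, against 23.0%). It was 53 with upper-quartile factors (66.2%, against 30.5%) and 75 with library totals (93.8%, against 54.3%). At an adjusted p under 0.01 it was 5 (6.25%), and the all-gene share was not counted there. Without single libraries, where fewer samples enter the test, it ran from 7 (8.75%, against 19.2%) to 62 (76.5%, against 23.2%). The count of 4 that fell, where 22.8% of all genes did, moved to 1 with library totals, where 8.78% of all genes fell. It was 1 without the 8 paralogs. Without single libraries it lay between 3 and 4, where 18.05% to 26.1% of all genes fell. The median log2 fold change moved to 0.68 with library totals and lay between 0.16 and 0.35 without single libraries. Scaling to the summed members sets their level to 0 by construction and was added after the data were seen. It gave 2 higher (2.5%), 7 lower and a median of -0.00040, and shares over all genes were not counted there. The replicate block gave 44 higher (55%, against 26.1% of all genes) and 4 lower (24.2% of all genes fell), with a median of 0.25. Same-numbered cisplatin and control libraries deviated together with correlations of 0.13, 0.14 and 0.10. The last, 0.09973, narrowly missed a cutoff of 0.1, and only for that reason were the numbers not taken as pairs. Each library nevertheless correlated best with its own number, and all correlations between different numbers were negative (-0.13 to -0.03). Deviations from a group mean cancel within each gene, so positive values for the same number bring negative ones for others. A batch shared by same-numbered libraries was not tested. The 35 higher without a low-count filter (42.2%, against 14.1% of all genes) shared 30 with the 32 reported.

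Single values that changed sign were Rpl41 with DESeq2 size factors (-0.014) and in DESeq2 (-0.014), Rpl35a (0.0042) and Rps2 (0.028) with upper-quartile factors, and Rpl22l1 (0.091), Rpl35a (0.33) and Rps2 (0.36) with library totals. Without single libraries the ranges were -0.22 to 0.020 for Rpl35a, -0.14 to 0.034 for Rps2, -0.023 to 0.17 for Rpl28, -0.11 to 0.12 for Rpl41 and -0.034 to 0.19 for Rpl22. The ratio difference of Rps27l to Rps27 then ran from -0.11 to 0.017 and that of Rps4l to Rps4x from -0.022 to 0.39. The difference in the share of counts ran from 0.90 to 1.20 percentage points, and no denominator or member set tried turned it. Over the named members, 539 values kept direction and call, 81 lost the call and 31 gained it; the causes were not tested. Depth limits Rpl3l, Rps10, Rpl24 and Rpl36al, at 37 counts or fewer per library.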
